A study of Mus musculus with 8 samples.

Results

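The 10 genes described here, *Lgr5*, *Olfm4*, *Smoc2*, *Ascl2*, *Tnfrsf19*, *Cdca7*, *Rgmb*, *Msi1*, *Lrig1* and *Gkn3*, form a core set of genes of the Lgr5+ intestinal stem cell, listed by name with earlier results of these data known, among 53801 genes of the count table. All 10 were found in the table and all 10 passed the filter on low counts, which left 16445 genes. The RNA came from Lgr5-GFP+ cells sorted from the adult mouse intestine, with 4 libraries labelled beta-cateninGOF; Mll1-/- (knockout) and 4 labelled beta-cateninGOF; Mll1+/-, with 1 mouse for each library. Every mouse of both genotypes carried the same stabilised β-catenin allele, lacking the exon that marks the protein for degradation, and the Lgr5-EGFP-IRES-CreERT2 cassette, which was inserted into the *Lgr5* gene and drives both the GFP and the tamoxifen-dependent Cre. The genotypes therefore differed in whether 1 or 2 floxed *Mll1* alleles were open to Cre. Tamoxifen was injected at 50 mg per kg on 3 days in mice of 4 to 6 weeks, and cells were taken 10 days after induction. No mouse with normal β-catenin was compared. The sort kept living EpCAM+, CD45-, GFP+ cells and did not separate cells in which Cre had acted from cells in which it had not. Cells were also stained for CD24, and the methods of the authors do not state how that stain was gated. Sex is not given in the labels.

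Lgr5+ cells sit at the base of the crypt between Paneth cells, divide throughout life and supply all cell types of the intestinal epithelium. Their state depends on Wnt signalling: R-spondins bind Lgr5 and keep Wnt receptors at the cell surface, β-catenin enters the nucleus and joins TCF factors, and the transcription factor Ascl2 acts with them on stem cell genes. Notch signalling keeps the cells out of the secretory lineage, and BMP signals from the villus side limit the stem cell zone. Mll1, encoded by *Kmt2a*, is a methyltransferase for lysine 4 of histone H3. The comparison asks whether the transcripts of the core stem cell genes differ between stem cells labelled as having lost both copies of *Mll1* and those labelled as having lost 1.

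The libraries held 14468751 to 16847793 counts on genes, and mitochondrial genes held 17.1 to 27.1% of them in the libraries labelled Mll1-/- and 23.3 to 30.1% in those labelled Mll1+/-. The library of mouse J_7135, labelled Mll1-/-, stood apart from the rest, since its Spearman correlation with the nearest library was 0.909 over genes and that of every other library at least 0.947. The library numbers in the count table form 2 runs, each with 2 libraries of each genotype. The first run held J_7075 and J_7096 (labelled Mll1-/-) with J_7079 and J_7100 (labelled Mll1+/-), and the second J_7135 and J_7136 with J_7134 and J_7139. *Kmt2a* was at 59.5, 62.6, 78.5 and 53.5 CPM in J_7075, J_7096, J_7135 and J_7136, labelled Mll1-/-, and at 50.2, 64.9, 51.2 and 48.9 CPM in J_7079, J_7100, J_7134 and J_7139. The means were 63.5 ± 10.7 and 53.8 ± 7.45 CPM (SD, n = 4), with overlapping ranges and a log2 fold change of 0.24 (SE 0.17, edgeR adjusted p = 0.710). These counts do not go down with the label, and since they pool all exons of the gene they do not measure the deleted part on its own. The genotypes are called by their labels below for that reason. *Ctnnb1*, which encodes β-catenin, was at 179 ± 18.0 and 167 ± 20.5 CPM (adjusted p = 0.860). CPM are counts scaled to the TMM library size, and log2 fold changes are libraries labelled Mll1-/- minus those labelled Mll1+/-.

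The clearest contrast among the 10 genes was in *Olfm4*, the secreted olfactomedin that is the most abundant transcript of the set, with *Gkn3*, a secreted gastrokine, second. Both lay lower in all 4 libraries labelled Mll1-/- than in any library labelled Mll1+/-. *Lgr5* itself and *Smoc2* were nearly level between the genotypes. None of the 10 genes passed an adjusted p of 0.1 in edgeR, where 14 of all 16445 genes did (0.0851%, with 0.0365% as lower and 0.0486% as higher). With an unadjusted p under 0.05, 2 of 10 were counted, both lower, against 9.15% of all genes in either direction and 3.75% as lower. Non-overlapping libraries were found for 2 of 10, *Olfm4* and *Gkn3*, against 6.28% of all genes and 2.94% of them as lower. The fitted log2 fold change was below 0 for 7 and above 0 for 3, and its median was −0.13 beside 0.01 over all genes tested. In a bulk library, fewer cells of a type and less RNA per cell cannot be told apart.

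The sequence just before the start of the gene is shown for 3 of the members, chosen for their content of CG dinucleotides. Among the 7 members with a promoter window, the pair whose libraries did not overlap held the fewest, and *Lrig1* held the most. A link between CG content and the genotype difference was not tested. RefSeq promoter windows on GRCm38.p6 were found for 7 of the 10 genes, in 10 windows of 300 bases, 250 before and 50 after the start. No window was used for *Lgr5*, *Smoc2* and *Msi1*. The windows of *Olfm4* and *Gkn3* held 5 CG each, below the median of 7 over 32851 promoters (quartiles 3 and 20). The other 8 windows held 13 to 35, with 13 and 14 at *Tnfrsf19*, 18, 24 and 30 at *Rgmb*, 23 at *Ascl2*, 26 at *Cdca7* and 35 at *Lrig1*. The 250 bases before the start follow in the direction of the gene, with each CG in capitals. They lie at chr14:80000052-80000301 on the plus strand for *Olfm4*, at chr6:87388936-87389185 on the minus strand for *Gkn3* and at chr6:94700146-94700395 on the minus strand for *Lrig1*. The RefSeq start of *Olfm4* lies 16221 bases inside the Ensembl gene, whose span begins upstream.
Olfm4: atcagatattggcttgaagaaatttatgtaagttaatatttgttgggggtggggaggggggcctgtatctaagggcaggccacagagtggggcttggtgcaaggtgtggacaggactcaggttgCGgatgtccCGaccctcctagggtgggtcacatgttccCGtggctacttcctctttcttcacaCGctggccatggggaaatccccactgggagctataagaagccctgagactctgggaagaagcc
Gkn3: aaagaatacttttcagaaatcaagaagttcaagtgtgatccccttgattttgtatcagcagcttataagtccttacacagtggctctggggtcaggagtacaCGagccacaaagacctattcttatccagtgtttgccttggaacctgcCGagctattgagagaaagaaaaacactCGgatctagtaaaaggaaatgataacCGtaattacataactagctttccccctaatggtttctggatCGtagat
Lrig1: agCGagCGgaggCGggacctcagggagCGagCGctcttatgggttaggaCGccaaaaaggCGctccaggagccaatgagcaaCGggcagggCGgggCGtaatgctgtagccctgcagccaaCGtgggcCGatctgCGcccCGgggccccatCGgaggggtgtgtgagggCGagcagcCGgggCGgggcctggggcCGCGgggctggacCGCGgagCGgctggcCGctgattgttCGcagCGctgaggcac
The capitals are sparse in *Olfm4* and *Gkn3* and run through the whole stretch of *Lrig1*. Letters of TCF/LEF motifs were found in 1 of the 10 windows, near the share over all promoters. CTTTGAT was found on 1 strand of 1 window of *Tnfrsf19*, 202 bases before its start, CTTTGTT was found in no window, and 9.33% of all promoters held at least 1 of them on either strand. GTGGGAA, a motif of the Notch factor RBPJ, was found at *Cdca7*, 227 bases before its start, and in 6.38% of all promoters. These counts describe the letters of the windows, and binding was not measured. The CG content was looked at with the values of the genes known.

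Levels between genes were compared as CPM per kb of exons, the TMM-scaled counts divided by the deposited gene length. The 10 genes had the same order in both genotypes. *Olfm4* stood first with 7002 ± 576 in the libraries labelled Mll1+/- and 4105 ± 944 in those labelled Mll1-/-. It ranked 8 and 9 among all genes on this scale. *Gkn3* came next with 305 ± 60.5 and 214 ± 18.0, then *Cdca7* with 148 ± 7.53 and 144 ± 35.8, and *Smoc2* with 124 ± 7.95 and 127 ± 35.1. *Rgmb*, *Ascl2* and *Tnfrsf19* lay between 37.5 and 77.0 in the means of both genotypes. *Lgr5*, the gene that names the cells, was 8th of the 10 on this scale, with 26.4 ± 4.00 and 25.4 ± 1.94. *Lrig1* had 13.6 ± 0.963 and 15.7 ± 2.84, and *Msi1* was lowest with 2.94 ± 0.511 and 3.10 ± 1.13. In the libraries labelled Mll1+/-, only *Rgmb* and *Ascl2* among neighbours in this order had overlapping ranges. In those labelled Mll1-/-, *Gkn3* and *Cdca7*, *Cdca7* and *Smoc2*, *Rgmb* and *Ascl2*, and *Ascl2* and *Tnfrsf19* overlapped.

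**Figure D1:**
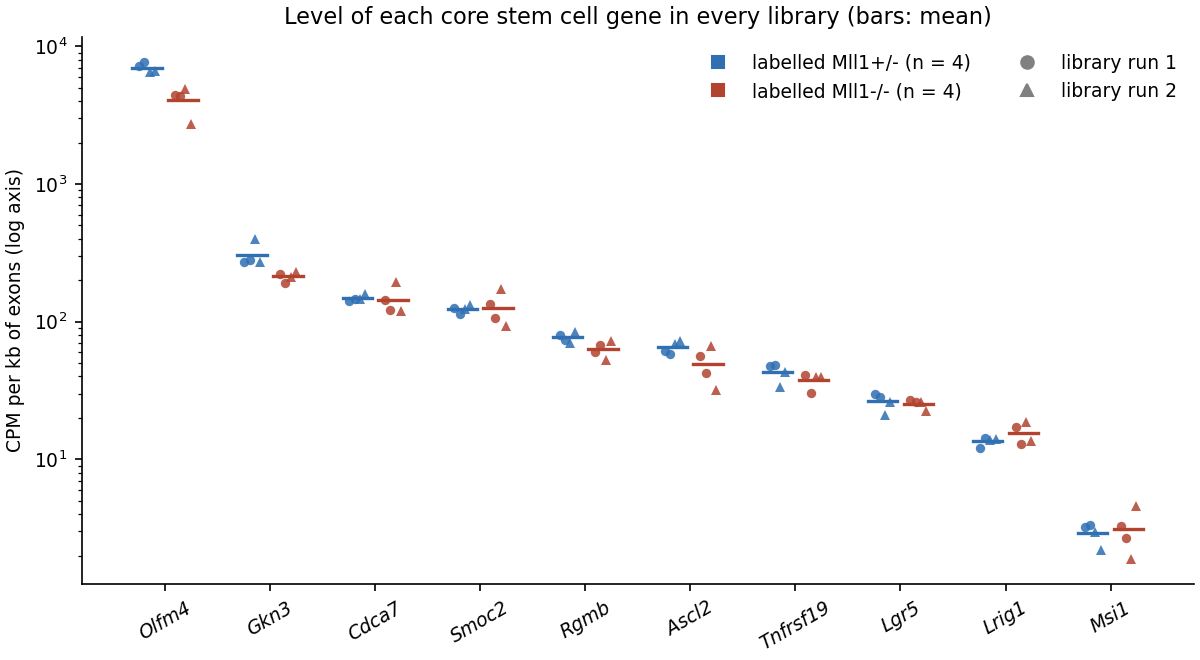
Each point is 1 library, the vertical axis is CPM per kb of exons on a log axis, and the horizontal axis lists the 10 genes by their mean in the libraries labelled Mll1+/- (blue, 4 libraries; red, 4 libraries labelled Mll1-/-), with circles for the first library run, triangles for the second and a bar at each mean. The levels run from 7002 for *Olfm4* to 2.94 for *Msi1* in the blue means, and only *Olfm4* and *Gkn3* have red points that all lie under the blue ones.

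*Olfm4* (ENSMUSG00000022026, GRCm38 chromosome 14, 79984081 to 80023139) encodes a secreted glycoprotein that marks crypt base stem cells and responds to Notch. It was at 13175 CPM in J_7075, 12955 in J_7096, 14429 in J_7135 and 8080 in J_7136, all labelled Mll1-/-. In the libraries labelled Mll1+/- it was at 21215 CPM in J_7079, 22949 in J_7100, 19281 in J_7134 and 19520 in J_7139. The 4 knockout-labelled values all lay below the lowest of the others, and J_7136 was lowest by a wide step. The log2 fold change was −0.77 (SE 0.17, 95% interval −1.15 to −0.39), a level of 0.586 times. The adjusted p was 0.200 with edgeR, and the exact permutation test gave p = 0.0286 (two-sided), the smallest value that the 70 assignments of the libraries allow. DESeq2 called the gene with an adjusted p of 0.00573, where it called 2.74% of the genes to which it gave an adjusted p (1.09% as lower), and limma-voom with quality weights with 0.0556, where 0.626% of all genes were called (0.286% as lower). The call thus depended on the tool, while the size did not. Without J_7136 the log2 fold change was −0.62 (edgeR adjusted p = 0.203), and without J_7135 it was −0.86 (adjusted p = 0.122). Within the runs the mean log2 values differed by −0.76 and −0.85, first and second, without overlap in either.

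The amount of *Olfm4* was large enough to show in the makeup of whole libraries. It took 0.808 to 1.62% of all counts on genes in the libraries labelled Mll1-/- and 1.66 to 2.10% in those labelled Mll1+/-, and was the second most abundant gene outside the mitochondrial genome in every library. Within the counts of the 10 genes its share was 83.4 to 89.0% against 90.6 to 92.2%. The other 9 genes together held 0.161 to 0.237% of counts in the libraries labelled Mll1-/- and 0.166 to 0.199% in those labelled Mll1+/-, and these ranges overlapped (exact permutation p = 0.800). On the TMM scale the 9 genes summed to 1795 ± 244 against 1965 ± 44.9 CPM, a log2 difference of −0.14 in place of 0.05 for the share, and overlapped as well (exact permutation p = 0.286). The ratio of *Olfm4* to *Lgr5* counts within a library does not depend on the scaling of the library. It was 47.6 in J_7075, 48.1 in J_7096, 54.2 in J_7135 and 34.8 in J_7136, against 68.8 in J_7079, 78.2 in J_7100, 89.8 in J_7134 and 72.6 in J_7139. The genotypes did not overlap in this ratio (exact permutation p = 0.0286, the smallest possible).

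*Gkn3* (ENSMUSG00000030048, chromosome 6, 87383256 to 87388935), a gastrokine best known from the stomach and also found in intestinal stem cells, was at 192 CPM in J_7075, 163 in J_7096, 180 in J_7135 and 198 in J_7136. In the libraries labelled Mll1+/- it was at 234 CPM in J_7079, 238 in J_7100, 339 in J_7134 and 233 in J_7139. All 4 values of the first set lay below all 4 of the second, and J_7134 was far above the others of its genotype. The log2 fold change was −0.51 (SE 0.15, 95% interval −0.84 to −0.18), with an adjusted p of 0.352 in edgeR and an exact permutation p of 0.0286. DESeq2 called it with an adjusted p of 0.0863, and limma-voom did not (adjusted p = 0.215). Without J_7134 the log2 fold change was −0.36 (edgeR adjusted p = 0.525), still with an unadjusted p under 0.05. The differences within the runs were −0.42 and −0.57. The ratio of *Gkn3* to *Lgr5* counts within a library was 0.604 to 0.853 against 0.759 to 1.58, with overlap (exact permutation p = 0.0857).

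*Smoc2* (ENSMUSG00000023886, chromosome 17, 14279506 to 14404790), the third secreted product of the set and a calcium-binding matricellular protein, did not follow *Olfm4*. It was at 379, 301, 489 and 264 CPM in J_7075, J_7096, J_7135 and J_7136, and at 356, 322, 352 and 377 CPM in J_7079, J_7100, J_7134 and J_7139. The libraries labelled Mll1-/- held both the highest and the lowest value, around an almost level mean. The log2 fold change was 0.03 (95% interval −0.38 to 0.43, edgeR adjusted p = 0.980), so that a shift of the size fitted for *Olfm4* lies outside the interval.

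**Figure D2:**
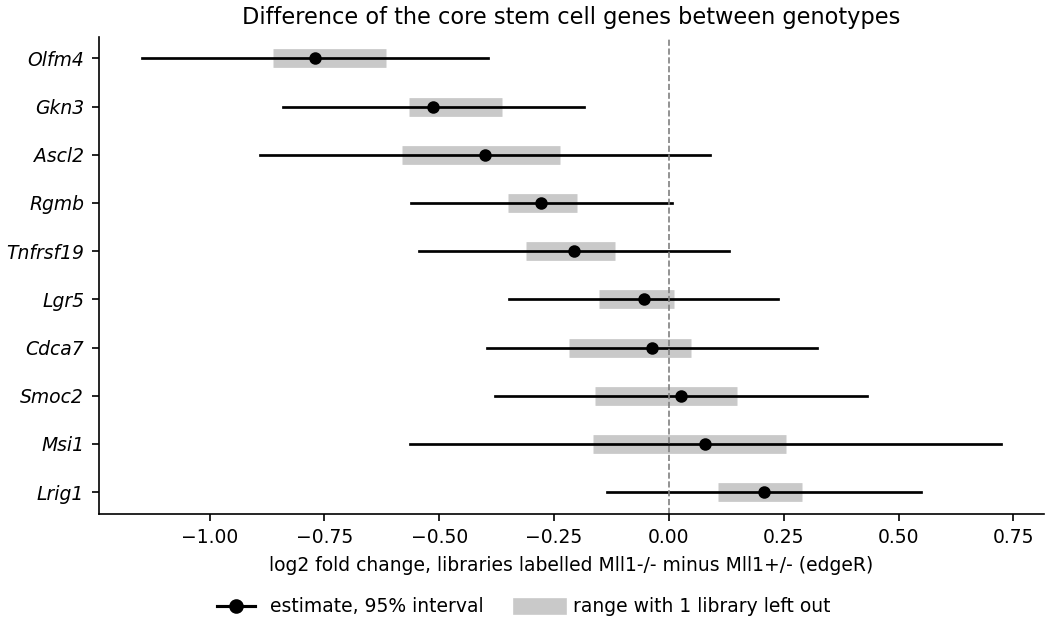
Points are log2 fold changes of the 10 genes fitted by edgeR (libraries labelled Mll1-/- minus Mll1+/-, 4 of each), thin lines are 95% intervals and grey bars are the range of the estimate when 1 library is left out. The intervals of *Olfm4* and *Gkn3* lie below 0, and the other 8 include it.

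*Lgr5* (ENSMUSG00000020140, chromosome 10, 115450311 to 115587780) encodes the R-spondin receptor. It was at 277 CPM in J_7075, 269 in J_7096, 266 in J_7135 and 232 in J_7136, and at 308 in J_7079, 293 in J_7100, 215 in J_7134 and 269 in J_7139. The lowest and the highest of the 8 values were both in the libraries labelled Mll1+/-. The log2 fold change was −0.06 (SE 0.13, 95% interval −0.35 to 0.24, edgeR adjusted p = 0.933). The cells of both genotypes had been sorted on GFP made from the *Lgr5* locus, so the level of this gene was part of the gate. *Tnfrsf19* (chromosome 14, 60963875 to 61046490), the receptor Troy, a Wnt target that dampens Wnt signalling, was at 193, 144, 187 and 187 CPM in J_7075, J_7096, J_7135 and J_7136, and at 227, 229, 159 and 206 CPM in J_7079, J_7100, J_7134 and J_7139. The ranges overlapped through J_7134, with a log2 fold change of −0.21 (95% interval −0.54 to 0.13, adjusted p = 0.727). The difference was −0.45 in the first run, without overlap, and 0.05 in the second, and the interaction of genotype with run had an unadjusted p of 0.117. That was the smallest interaction p among the 10 genes, and 6.86% of all genes had an interaction p under 0.05, none with an adjusted p under 0.1.

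*Ascl2* (ENSMUSG00000009248, chromosome 7, 142966829 to 142969264), the Wnt-driven transcription factor of the stem cell programme, was at 91.9 CPM in J_7075, 69.0 in J_7096, 108 in J_7135 and 51.5 in J_7136. In the libraries labelled Mll1+/- it was at 99.7 CPM in J_7079, 95.1 in J_7100, 112 in J_7134 and 117 in J_7139. Only J_7135 reached into the range of the other genotype. The log2 fold change was −0.40 (SE 0.22, 95% interval −0.89 to 0.09, edgeR adjusted p = 0.629). Within each run the values did not overlap, with differences of −0.29 and −0.61. Without J_7135 the log2 fold change was −0.58 (adjusted p = 0.379), and without J_7136 it was −0.24. *Cdca7* (chromosome 2, 72476159 to 72486893), a chromatin protein of dividing progenitors, was at 458, 386, 626 and 380 CPM in J_7075, J_7096, J_7135 and J_7136, against 456 to 510 CPM in the libraries labelled Mll1+/-. Its log2 fold change was −0.04 (95% interval −0.40 to 0.32, adjusted p = 0.963), with J_7135 far above and J_7096 and J_7136 below the narrow range of the other genotype.

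*Rgmb* (ENSMUSG00000048027, chromosome 17, 15806253 to 15826586), a co-receptor for BMP ligands, was at 160, 178, 139 and 192 CPM in J_7075, J_7096, J_7135 and J_7136, and at 211, 194, 186 and 220 CPM in J_7079, J_7100, J_7134 and J_7139. The genotypes overlapped only in that J_7136 lay above J_7134. The log2 fold change was −0.28 (SE 0.13, 95% interval −0.56 to 0.01, adjusted p = 0.557), with differences of −0.26 and −0.31 in the runs. *Lrig1* (chromosome 6, 94604529 to 94700158), a membrane protein that restrains epidermal growth factor receptors, was at 96.5, 72.2, 105 and 76.1 CPM in J_7075, J_7096, J_7135 and J_7136, against 67.8 to 79.2 CPM in the libraries labelled Mll1+/-. J_7075 and J_7135 lay above all libraries of the other genotype, and the log2 fold change was 0.21 (95% interval −0.13 to 0.55, adjusted p = 0.730). Of its exonic bases 2.58% overlap *Slc25a26* on the other strand, and since strand was not used in the counting, reads there cannot be assigned. *Msi1* (chromosome 5, 115429599 to 115455698), an RNA-binding protein, was the least abundant member with 199 to 404 counts per library. It was at 18.9, 15.6, 10.98 and 26.5 CPM in J_7075, J_7096, J_7135 and J_7136, and at 18.7, 19.5, 17.1 and 12.8 CPM in J_7079, J_7100, J_7134 and J_7139. With a log2 fold change of 0.08 and a 95% interval from −0.56 to 0.72, neither a moderate loss nor a moderate gain could be told from level expression.

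The genes did not move as a block from library to library. J_7136 had the lowest value of the 8 libraries for *Olfm4*, *Smoc2*, *Ascl2* and *Cdca7* and the highest for *Msi1*. J_7135 had the highest value for *Smoc2*, *Cdca7* and *Lrig1* and the lowest for *Rgmb* and *Msi1*. J_7096 had the lowest for *Tnfrsf19* and *Gkn3*. The coefficient of variation was larger among the libraries labelled Mll1-/- for 7 of the 10 genes. Over all genes tested this was so for 66.1%, and for 50.2% without J_7135, where the count among the 10 stayed at 7. Without J_7136 it was 6. The biological coefficient of variation fitted by edgeR lay between 0.156 and 0.303 for the 10 genes, below the median of 0.349 over all genes. Beside genes of similar abundance, 6 of the 10 lay below the median and 4 above. Between the runs, 7 of the 10 genes kept the sign of the genotype difference of mean log2 values, 6 as lower and *Lrig1* as higher. The 6 include *Smoc2*, at −0.0051 and −0.018 though its fitted value was above 0, and *Cdca7*, at −0.0022 in the second run. The share of all genes that kept their sign was not computed.

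**Figure D3:**
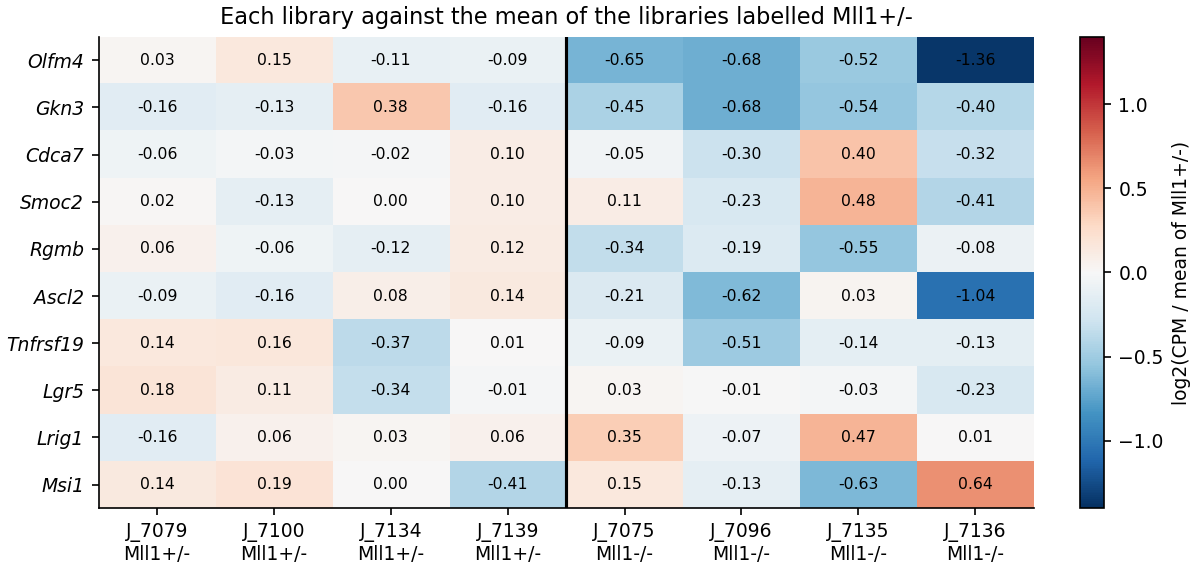
Each cell gives log2 of the CPM in a library (columns, 4 labelled Mll1+/- on the left and 4 labelled Mll1-/- on the right) over the mean of the 4 libraries labelled Mll1+/-, for each of the 10 genes (rows), with blue below and red above that mean. The rows of *Olfm4* and *Gkn3* are below 0 in all 4 right columns and below every left column, those of *Rgmb* and *Tnfrsf19* are also below 0 in all 4 right columns, J_7136 reaches −1.36 for *Olfm4* and −1.04 for *Ascl2*, and J_7135 is red for *Smoc2*, *Cdca7* and *Lrig1*.

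Over the 8 libraries, the genes whose log2 CPM ran most like *Olfm4* were *Rhou* (Pearson r = 0.97), *Casp1* (0.97) and *Rps6* (0.97). Those most like *Lgr5* were *Sfr1* (0.97), *Wdr78* (0.97) and *Nedd9* (0.97). *Wdr78* was near the floor, with means of 0.865 CPM in the libraries labelled Mll1-/- and 1.18 CPM in those labelled Mll1+/-. The 8 libraries span both genotypes and share a similar depth, so a gene that differs between the genotypes in the way *Olfm4* does can rank high here. The log2 fold change was −0.77 for *Rhou* and −0.70 for *Casp1*, but only −0.18 for *Rps6*. By Pearson r, among the 10 genes *Ascl2* ran most like *Olfm4* (r = 0.82), though its Spearman rho of 0.62 was below those of *Tnfrsf19* (0.71) and *Gkn3* (0.69), and *Tnfrsf19* ran most like *Lgr5* (r = 0.62). *Olfm4* and *Lgr5* had an r of 0.42 with each other.

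Of 20 symbols listed for paralogues of the 10 genes, 19 were found and 10 passed the filter. None was called by edgeR (DESeq2 called *Lgr4*), 2 had an unadjusted p under 0.05, both lower (3.75% of all genes as lower), and 8 of 10 fitted values lay below 0 (49.2% of all genes). *Lgr4*, the R-spondin receptor expressed throughout the epithelium, was at 28.3 CPM per kb over the 8 libraries, about level with *Lgr5* at 25.9. It was at 115 to 155 CPM in the libraries labelled Mll1-/- and 162 to 234 CPM in those labelled Mll1+/-, with a log2 fold change of −0.60 (SE 0.16, unadjusted p = 0.00350, edgeR adjusted p = 0.274). The interval of *Lgr5* does not reach this value, but the difference between the 2 receptors was not tested. *Msi2*, the other Musashi protein, was at 3.21 CPM per kb beside 3.02 for *Msi1*, with a log2 fold change of −0.32 (adjusted p = 0.651). *Olfm1* was at 1.11 CPM per kb, against 5554 for *Olfm4*, with a log2 fold change of −1.32 (SE 0.49, unadjusted p = 0.0228, adjusted p = 0.481). *Cdca7l* (0.02), *Lrig3* (−0.07) and *Tnfrsf21* (−0.50) had log2 fold changes with adjusted p above 0.9. *Gkn2* had no count in any library.

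Of 27 further genes of the Lgr5+ stem cell, 16 fitted values lay above 0 and 11 below, with a median log2 fold change of 0.09. Of these, edgeR called 1, against 0.0851% of all genes. *Soat1*, which esterifies cholesterol, fell by 0.92 on the log2 scale (SE 0.13, edgeR adjusted p = 0.0918), from 384 to 555 CPM in the libraries labelled Mll1+/- to 233 to 273 CPM in those labelled Mll1-/-. With 1 library left out its log2 fold change stayed between −1.01 and −0.84, and the call was kept in 1 of 8 such fits, the one without J_7135 (adjusted p from 0.0689 to 0.250). With the run as a block the adjusted p was 0.113. *Slc12a2*, the Na-K-Cl cotransporter and an abundant stem cell marker, was at 1168 to 1740 CPM against 2155 to 2920 CPM, with a log2 fold change of −0.87 (adjusted p = 0.151). *Ephb3*, a Wnt-driven receptor that keeps cells at the crypt base, was at 24.2 to 35.6 CPM against 12.7 to 17.5 CPM, with a log2 fold change of 0.87 (adjusted p = 0.217). DESeq2 called 2 of the 27 as higher and 5 as lower, and limma-voom 1 as higher and 4 as lower. Both called *Soat1* and *Slc12a2*, and DESeq2 also called *Ephb3*. Over the whole table DESeq2 called 2.74% of the genes to which it gave an adjusted p, and limma-voom 0.626%. In edgeR, 6 of the 27 had an unadjusted p under 0.05 as lower and 4 as higher, against 3.75% and 5.40% of all genes. Summed over the list, the libraries labelled Mll1-/- held 4011 to 5240 CPM and the others 5288 to 6746 CPM, without overlap. Without *Slc12a2* the other 26 genes summed to 2835 to 3500 CPM against 3133 to 3826 CPM, with overlap. The direction thus differed between members of the wider list. Within the core, 2 of 10 had an unadjusted p under 0.05 in edgeR as lower and 0 as higher. The 3 core genes with fitted values above 0 had intervals that include 0.

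Of 8 genes of reserve or revival stem cells, edgeR called none and 3 had an unadjusted p under 0.05, all higher, against 5.40% of all genes as higher. They were *Tert*, the telomerase subunit (log2 fold change 0.86, adjusted p = 0.467), *Prox1* (1.21, adjusted p = 0.474) and *Mex3b* (1.26, adjusted p = 0.522). *Bmi1*, named after its values were seen, was the one gene of the list whose libraries did not overlap (2.94% of all genes as lower), at 3.25 to 29.2 CPM against 30.6 to 45.9 CPM (log2 fold change −1.09, adjusted p = 0.564), and *Hopx* was at −0.08. DESeq2 called *Prox1*. The median of the list was 0.98, and the summed level overlapped, at 107 to 269 CPM against 135 to 153 CPM. Of 16 proliferation genes, 15 fitted values lay above 0, while over all genes 49.2% lay below 0. None of the 16 was called by edgeR (DESeq2 called *Mcm3* and *Mcm5*). An unadjusted p under 0.05 was found for 5, all higher, against 5.40% of all genes as higher. The first 3 were *Mcm3* and *Mcm5* of the replicative helicase, with log2 fold changes of 0.91 (adjusted p = 0.200) and 0.77 (adjusted p = 0.282), and the mitotic kinase *Plk1* (0.74, adjusted p = 0.467). The median of this list was 0.28, with summed levels of 2154 to 2605 CPM against 1543 to 2285 CPM.

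**Figure D4:**
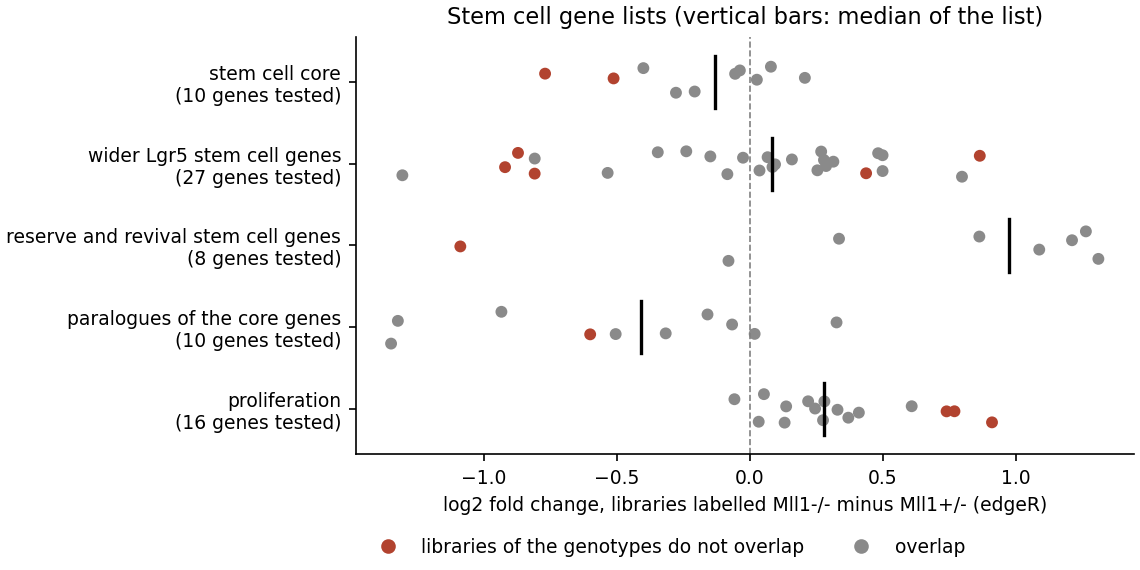
Each point is the edgeR log2 fold change (libraries labelled Mll1-/- minus Mll1+/-, 4 of each) of a tested gene of 5 lists, red where the libraries of the genotypes do not overlap and grey where they do, with a bar at the median of each list and random vertical spread. The medians are −0.13 for the stem cell core, 0.09 for the wider stem cell genes, 0.98 for the reserve and revival genes, −0.41 for the paralogues and 0.28 for proliferation.

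Markers of the gate and of other cell types were measured in the same libraries. The 6 epithelial markers all had fitted values above 0, summing to 3438 to 4139 CPM in the libraries labelled Mll1-/- and 2730 to 2997 CPM in the others, and *Epcam* was at 1255 CPM or more in every library. Over all genes 49.2% of fitted values lay below 0. In edgeR 3 of the 6 had an unadjusted p under 0.05, all higher (5.40% of all genes as higher). They were *Krt8* (0.57), *Vil1* (0.42) and *Krt18* (0.72). Of 9 Paneth cell markers, 7 fitted values lay below 0 (49.2% of all genes). An unadjusted p under 0.05 was found for 6 of these 9 (9.15% of all genes), with *Defa17* (−1.72) and *Defa24* (−1.28) below 0 and *Mmp7* (1.04) above 0. Their sum was 1559 to 5055 CPM against 3107 to 4849 CPM. Within it *Pla2g2a* alone ran from 113 to 2513 CPM against 106 to 1181 CPM, and the sum without this gene was not computed. Of 9 goblet cell markers, 7 lay above 0, led by *Muc2* (1.94), *Spdef* (2.41) and *Agr2* (0.93). In edgeR 5 had an unadjusted p under 0.05 as higher and 1 as lower, against 5.40% and 3.75% of all genes. The lower one was *Zg16*, named after its value was seen, at −4.03 (unadjusted p = 0.00892). *Spink4*, also named after its value was seen, was at −0.54 (edgeR adjusted p = 0.678). The goblet cell list had sums of 649 to 1193 CPM against 602 to 791 CPM. All 7 tested enteroendocrine markers lay below 0 (49.2% of all genes), and the list summed to 7.82 to 12.2 CPM against 9.71 to 74.5 CPM. Those with an unadjusted p under 0.05 in edgeR were 2, *Chgb* (−4.98) and *Chga* (−5.70), against 3.75% of all genes as lower. Both genes were near the floor in the libraries labelled Mll1-/-. *Chgb* was at 0.0657 to 0.757 CPM against 4.89 to 29.7 CPM, and *Chga* at 0 to 0.162 CPM against 0.778 to 8.02 CPM. Of 7 enterocyte markers 6 lay below 0 (49.2% of all genes), with *Apoa1* (−1.16), *Fabp2* (−0.93) and *Fabp1* (−2.41) first, and sums of 578 to 856 CPM against 736 to 839 CPM. In edgeR 4 of the 7 had an unadjusted p under 0.05 as lower and 1 as higher, against 3.75% and 5.40% of all genes. None of these genes was called by edgeR, which called 0.0851% of all genes. Of 44 tested markers of the gate and of other cell types, DESeq2 called 17 and limma-voom 3. Over the whole table DESeq2 called 2.74% of the genes to which it gave an adjusted p, and limma-voom 0.626%. Immune markers summed to at most 229 CPM in any library, nearly all from *Cd74*, with *Ptprc*, which encodes CD45, at 0.957 CPM or less. Tuft cell markers reached at most 10.5 CPM. Of 10 stromal and endothelial markers, *Vim* was at 44.3 to 116 CPM against 0.194 to 4.89 CPM (log2 fold change 4.48, adjusted p = 0.108), while the collagen genes *Col1a1*, *Col1a2* and *Col3a1* stayed at 1.48 CPM or less. Their part in the values of *Olfm4* and *Gkn3* was not tested.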

How the data were processed

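Smart-seq2 libraries of sorted cells, 1 per mouse and without molecular identifiers, were sequenced by the authors. Per the labels and the header of the table, the authors used GSNAP with mm10 and counted uniquely mapped reads on Ensembl release 92 genes with featureCounts 1.6.3 without strand at a mapping quality of at least 1. The deposited counts are raw, and the deposited signal table holds these counts divided by 1 size factor per library, of 0.811 to 1.17, for 25485 genes and was not used in a test. Another deposited column holds gene lengths in bases, used for CPM per kb.

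Genes were filtered with filterByExpr (10 counts, 15 in total), scaled with TMM and fitted with the robust quasi-likelihood test of edgeR 4.0.16 (R 4.3.3), genotype being the only term. Tests were two-sided, with Benjamini-Hochberg adjustment over all 16445 genes and a threshold of 0.1. Intervals of 95% come from the fit. DESeq2 1.42.0, limma 3.58.1 (voom), other scalings and filters, a block for the run, and the removal of each library were alternatives. Differences within runs are of mean log2(CPM + 1). Genes of other lists were named where called, or as the up to 3 with the smallest unadjusted p under 0.05, and paralogues by level. *Kmt2a* and *Ctnnb1* were named as the targeted genes. The lists and the members were chosen with earlier results of these data known. 1 paralogue is not reported here. The tests were tested on simulated data. Depth bounds *Msi1* most, at 199 counts or more. Whether library numbers mark separate runs is taken only from their gap. Figures were drawn with matplotlib 3.10.9.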

Additional observations from a re-analysis of the deposited data

Results flagged for a closer look

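A sample far from the others of its genotype was looked for in 20 sets of 4 libraries, the 10 genes in each genotype, by Dixon's test, which by chance points to about 1 in 20. In 2 sets the test pointed to a library. *Tnfrsf19* was at 143.7 CPM in J_7096, below the other libraries labelled Mll1-/- at 187 to 193 CPM. *Gkn3* was at 338.7 CPM in J_7134, above the other libraries labelled Mll1+/- at 233 to 238 CPM. Without J_7096 the log2 fold change of *Tnfrsf19* was −0.12, and without J_7134 that of *Gkn3* was −0.36.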

How the results depend on the processing

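Over 16 alternative fits, *Olfm4*, *Gkn3*, *Ascl2*, *Rgmb*, *Tnfrsf19* and *Lrig1* had the sign of the reported value in every fit, and the other 4 genes changed sign in at least 1. The count of the 10 genes called was 2 with DESeq2 (*Olfm4* at −0.76 and *Gkn3* at −0.51), 1 with limma-voom (*Olfm4* at −0.79) and 0 in all others, with 0 to 0 when 1 library was left out. Genes called over the whole table numbered 406 with DESeq2, 103 with limma-voom, 8 with upper quartile scaling, 47 without a filter, 34 with at least 10 counts in every library and 0 with the run as a block, and ran from 0 to 45 with 1 library left out, the 45 without J_7135. The median of the 10 genes ran from −0.23 (without J_7134) to −0.094 (without J_7096). *Smoc2* turned to −0.073 with limma-voom, to −0.0051 within the first run and −0.018 within the second, and ran from −0.16 (without J_7135) to 0.15 with 1 library left out. The same ranges were −0.15 to 0.010 for *Lgr5*, −0.22 to 0.047 for *Cdca7* and −0.17 to 0.26 for *Msi1*. Within the second run *Lgr5* was at 0.048 and *Tnfrsf19* at 0.047, and within the first *Msi1* was at −0.14. The causes were not tested. Scalings moved the median of all genes by less than 0.1. Scaling to spike-ins was not run, since libraries held 0 to 36 spike-in counts. No paired analysis was possible because the labels carry animal numbers and no replicate number that the genotypes share. With 4 libraries of each genotype a single-value permutation test cannot go below 0.0286.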
